A study of Homo sapiens with 4 samples.

Results

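In 192 autosomal design regions, the ratio of DNA from induced cells (Cy5) to DNA from uninduced cells (Cy3) was raised in every one of 4 arrays. A design region is a stretch that the array tiles with probes, most often 2700 bp long, and is read here as a promoter tile. The regions were chosen on the ratio itself. The median of all probes was subtracted within each array, probes that the files list with a count of 1 (single-match probes) were averaged within a region, and a region was kept when this mean was 0.3 log2 or more in each array. Regions needed at least 10 such probes and had to lie on chromosomes 1 to 22. The rule took 192 of 16166 measured autosomal regions (1.19%), out of 18028 design regions in the files. They are called high regions below. The same rule turned round, with -0.3 log2 or less in every array, took 275 regions (1.7%), called low regions. Since the ratio chose the high regions, their ratios are given as a description. Tests over all regions include them, and nothing is read from the calls among them.

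The cells were HEK293, a human embryonic kidney line, carrying an HA-tagged RPF-1 that is expressed when tetracycline is absent. Induced cells (Tet-) spent 48 h in medium without tetracycline, and uninduced cells (Tet+) spent 48 h with it. Both carried the transgene and both were precipitated with the anti-HA antibody, so each array set the 2 states of the same line against each other, with induced DNA in Cy5 and uninduced DNA in Cy3. Whether the line is 1 clone is not stated in the labels. There was no dye swap, so a dye effect and an effect of induction cannot be told apart in any value below. The labels number the cells of arrays 2, 3 and 4 differently and those of array 1 not at all, and nothing says that they came from separate cultures.

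In such an experiment (ChIP-chip), proteins are fixed to DNA, the sheared chromatin is pulled down with an antibody, and the recovered DNA is read by its brightness on tiled probes. Transcription factors hold short DNA motifs, and a tag such as HA lets an antibody recover the tagged protein with the DNA it is fixed to. A factor bound at a single site usually gives a peak about as wide as the sheared fragments, whereas a whole tile standing above 0 is a broader signal. Whether single-site binding underlies any of the regions was not tested. The gene content of the regions was not analysed here, because no source used here names the genome build of the coordinates. Coordinates are those of the files.

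The high regions had a median of 0.51 log2 over the 4 arrays, with means between 0.35 and 1.24. The median of all autosomal regions was -0.02. By array, the high regions averaged 0.48, 0.56, 0.63 and 0.49 log2 in arrays 1 to 4. Of the 192, 176 had a mean of 0.4 or more, 113 of 0.5 or more, 48 of 0.6 or more and 8 of 0.8 or more. In 47 of them every array was at 0.4 or more. The limit itself separates nearly equal values. The last regions inside it were chr1:239911304-239914004, chr12:66905338-66908038 and chr1:166964552-166967252, whose lowest arrays stood at 0.3000, 0.3005 and 0.3006. The first outside it were chr19:41755530-41758230, chr11:114879825-114882525 and chr4:48603072-48605772, at 0.2995, 0.2988 and 0.2987.

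**Figure D1:**
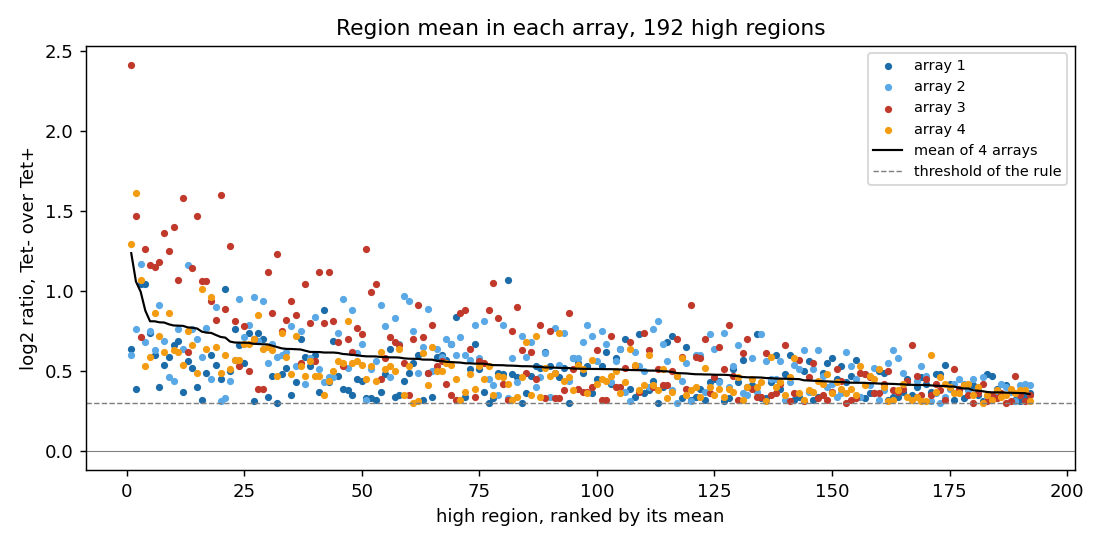
Mean log2 ratio (Tet- over Tet+) of the 192 high regions in each of the 4 arrays, against their rank by the mean of the arrays (black line). The means run from 1.24 to 0.35, and array 3 supplies most of the points furthest above the line, up to 2.41.

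The strongest high region was chr11:48282150-48284850. Its 19 single-match probes averaged 0.64, 0.60, 2.41 and 1.29 log2 in arrays 1 to 4, which gave 1.24 ± 0.84 (SD, n = 4), or 2.36-fold. Arrays 3 and 4 were well above arrays 1 and 2 there. The region was high along its whole length, with 1.09, 1.28 and 1.30 log2 in its first, central and last parts when it was cut into 3 equal lengths. Without its 3 highest probes it still averaged 1.17. The second, chr16:55993979-55996679, gave 0.39, 0.76, 1.47 and 1.61 log2, with a mean of 1.06 ± 0.58 over 16 probes, and arrays 3 and 4 were again the higher ones. Its 3 parts stood at 1.07, 0.88 and 1.14.

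The third, chr6:31025337-31028037, was high in all arrays alike, at 1.04, 1.17, 0.71 and 1.07 log2 (1.00 ± 0.20). Only 10 of its 26 probes were single-match, and the other 16, with a mean count field of 6.38, averaged 1.11 ± 0.26. On chromosome 15, chr15:68781174-68783874 gave 1.04, 0.68, 1.26 and 0.53 log2 over 25 probes (0.88 ± 0.34), with 0.84, 0.92 and 0.87 in its 3 parts. These first 4 regions lay between 1.84-fold and 2.36-fold.

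The next 6 regions had means between 0.78 and 0.81 log2. They were chr19:56582509-56585209 (0.81 ± 0.25), chr10:35521860-35525335 (0.81 ± 0.25), chr11:76675611-76678311 (0.80 ± 0.33), chr1:144234146-144236846 (0.80 ± 0.38), chr7:28439558-28442258 (0.79 ± 0.35) and chr6:47855556-47858256 (0.78 ± 0.42). In all 6, array 3 gave the highest value, between 1.15 and 1.40 log2, and the lowest array lay between 0.40 and 0.60.

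The 4 high regions with the smallest SD over the arrays were weak ones. On chromosome 3, chr3:101691952-101694652 gave 0.42, 0.39, 0.40 and 0.40 log2 (0.40 ± 0.02, n = 4). The other 3 with the smallest spread were chr8:93176119-93178819 (0.37 ± 0.02), chr7:34763909-34766609 (0.38 ± 0.03) and chr3:180761201-180763901 (0.39 ± 0.03). Across all 192, the SD over the arrays had a median of 0.15 log2, against 0.14 in the other regions. It was under 0.1 in 50 high regions and 0.3 or more in 21.

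Which array was highest differed from region to region. Array 3 was the highest in 73 high regions, array 2 in 70, array 1 in 33 and array 4 in 16. The file names put the arrays in 2 series, N39 (arrays 1 and 2) and N44 (arrays 3 and 4). Within the 192, Pearson's r between arrays did not divide by series. It was 0.49 for arrays 3 and 4, 0.31 for arrays 2 and 4, 0.11 for arrays 1 and 2, and between 0.03 and 0.17 for the other 3 pairs. Over all 16166 regions the 6 pairs had r between 0.33 and 0.69. Regions are not independent replicates, the arrays share probes and labelling, and a rule that keeps only high values narrows the range, so these are descriptions.

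The rule asks for a minimum in each array and not for equal values, so the arrays of 1 series may exceed those of the other. The difference is computed from the values that chose the regions, and the calls among them are given as a description. With limma over 16831 regions, no region on the arrays was called between series N44 and N39 (0 of 192 high regions, background 0.0%, adjusted p threshold 0.05). At an unadjusted p under 0.05, 16 of 192 high regions (8.33%) and 1546 of all 16831 (9.19%) differed. The lowest adjusted p of a high region was 0.36. Moderation with a trend and robust variances called 7 regions on the arrays and 0 of the 192. Pairs of arrays gave this test too little power for a count of 0 to show anything about the series. Both N44 arrays lay above both N39 arrays in 27 high regions (14.1%, against 16.9% of all autosomal regions). They lay below both in 40 (20.8%, against 23.4%). The largest differences were at chr11:48282150-48284850 (1.85 in N44 and 0.62 in N39), chr16:55993979-55996679 (1.54 in N44 and 0.58 in N39), chr2:24658649-24661349 (1.04 in N44 and 0.38 in N39) and chr4:48350191-48352891 (1.03 in N44 and 0.46 in N39). Without array 4 the fit rests on array 3 alone for its series. That fit assumes that array 3 varies like arrays 1 and 2, so its calls are not given.

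The next question was whether a region chosen on some arrays is also high in an array that the choice did not use. When the rule was applied to 3 arrays, it chose 427, 291, 318 and 298 regions with arrays 1, 2, 3 and 4 left out in turn. In the left-out array these regions had a median of 0.28, 0.42, 0.35 and 0.37 log2, against -0.01, -0.02, -0.03 and -0.03 for all regions. The share above 0 was 87.1, 95.5, 95.3 and 97.7%, against 47.6, 46.6, 45.7 and 43.4% of all regions. The share at 0.3 or more was 45.0, 66.0, 60.4 and 64.4%, against 10.3, 13.1, 13.6 and 7.29%. The regions that reach 0.3 there are by definition the 192 high regions each time. This share therefore only restates how many regions the 3 arrays chose, and is a description. Both shares were lowest when array 1 was the one left out. The chosen regions exceeded the others by 0.40 ± 0.07 log2 in the left-out array (n = 4 arrays, positive in 4 of 4). The exact sign-flip test over the 4 arrays, two-sided, gave p = 0.12, the smallest p that 4 arrays allow. Each array also helped to choose the regions measured in the other arrays, and all arrays share probes and labelling. The 4 differences are therefore not independent, and nothing is read from this p.

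**Figure D2:**
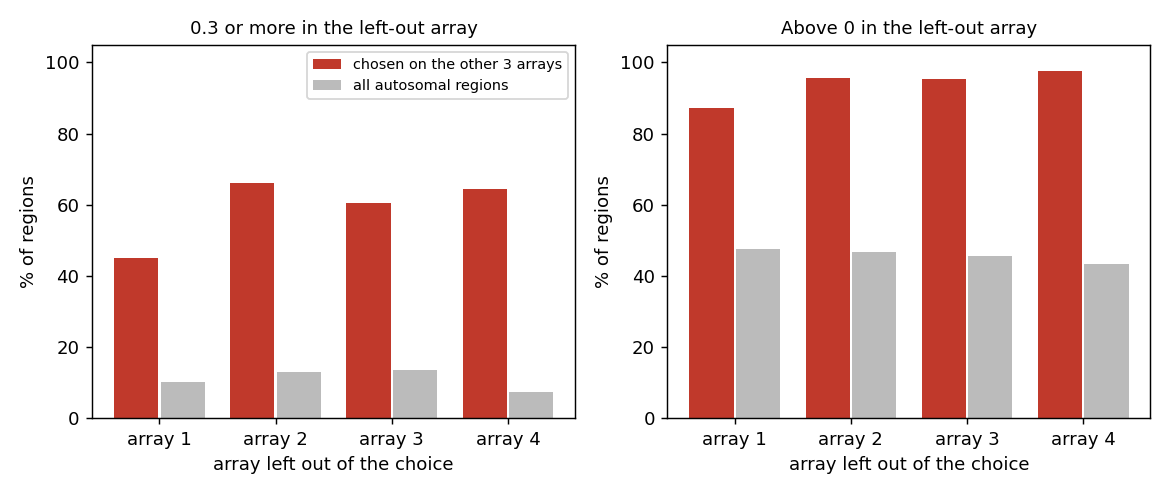
Share of regions at 0.3 log2 or more (left) and above 0 (right) in the array left out of the choice, for regions chosen on the other 3 arrays (red) and for all autosomal regions (grey). The red bars reach 45.0 to 66.0% and 87.1 to 97.7%, and the grey ones 7.29 to 13.6% and 43.4 to 47.6%. In the left panel the red bars count the same 192 high regions each time.

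Regions were also chosen in 1 array series and measured in the other. The 681 regions at 0.3 or more in arrays 1 and 2 had a median of 0.27 log2 in the mean of arrays 3 and 4, and 93.7% were above 0 there, against 44.9% of all regions. The 654 regions chosen on arrays 3 and 4 had a median of 0.33 in arrays 1 and 2, with 95.4% above 0, against 47.5%. The probes of a region were also divided into alternating sets. The 256 regions chosen on odd-numbered probes had a median of 0.36 log2 in their even-numbered probes, and 56 of them (21.9%) reached 0.3 in every array there, against 1.60% of all regions. The even-numbered probes chose 258 regions, of which 56 (21.7%) reached the limit in the odd-numbered ones. All these probes share the 4 hybridisations, and both series share probes and dye orientation. A bias of probe or dye would recur in each split, so these values are a description.

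Averaged along the tile, the high regions stood above 0 in every slice, with the highest values in the middle. There were 177 high regions of 2700 bp, and each slice of 300 bp was averaged over the 150 to 163 of them that had single-match probes there. The slices ran from 0.44 ± 0.09 log2 at the lower-coordinate end to 0.65 ± 0.08 at 1200 to 1500 bp, and 0.47 ± 0.06 at the other end (SD over 4 arrays). The low regions ran from -0.41 ± 0.04 through -0.53 ± 0.08 to -0.42 ± 0.03. Over all regions the slices stayed between -0.03 and 0.01.

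**Figure D3:**
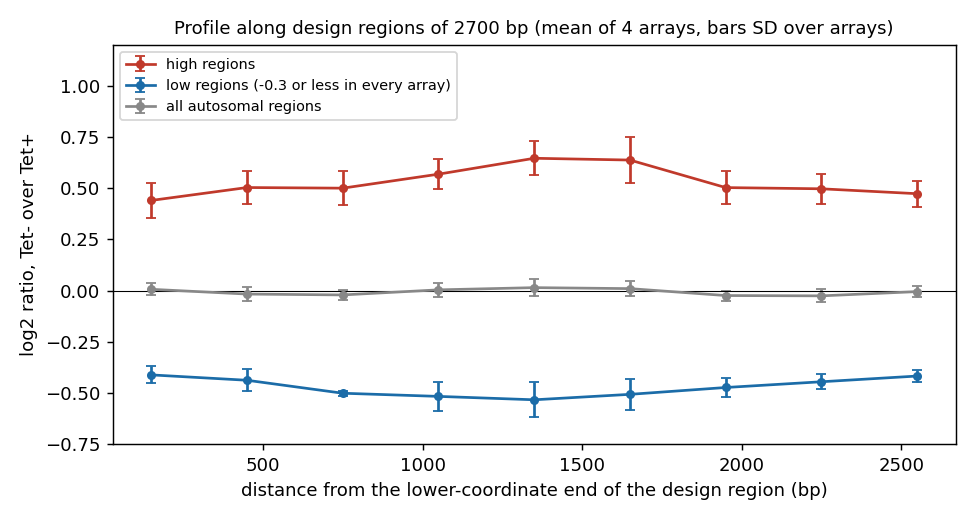
Mean log2 ratio in 300 bp slices along design regions of 2700 bp, measured from the lower-coordinate end, for high regions (red), low regions (blue) and all autosomal regions (grey), with SD over the 4 arrays. The high regions peak at 0.65 in the slice from 1200 to 1500 bp, and the slices of all regions stay between -0.03 and 0.01.

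The rule uses the mean of a region and not where in it the signal lies. The parts of a region are averages of the same probe values, however, and a choice on the mean can shift them unequally, so the calls among the high regions are a description and nothing is read from their number. With limma over 15883 regions, the central part differed from the outer parts in 81 of 180 high regions that could be measured (adjusted p threshold 0.05). The background was 35.5% of all regions, and the high regions gave 45.0%. The centre was higher in 55 of them (30.6%, background 19.3%) and lower in 26 (14.4%, background 16.1%). The median difference was 0.12 log2 in the high regions, against 0.02 over all regions and -0.08 in the low regions. Leaving out array 1 or array 2 lowered the count of high regions with a lower centre to 13 in either case. Over all regions this count also fell whenever an array was left out, as the closing section gives.

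The region with the largest such difference was uneven rather than high throughout. In chr17:46478770-46481470 the central part fell below the outer parts in every array, by -1.47, -1.14, -1.50 and -1.47 log2 (-1.40 ± 0.17). Its first part stood at 1.58, the central part at -0.24 and the last part at 0.39. The opposite shape was found at chr1:152216575-152219275, where the centre exceeded the outer parts by 1.01 ± 0.53 log2. It was also found at chr19:53518253-53520953 (0.92 ± 0.30), chr16:56981723-56984423 (0.82 ± 0.20) and chr6:121696825-121699525 (0.80 ± 0.29). In these 4 regions the central part was between 0.97 and 1.25 log2, and at least 1 outer part was at 0.15 or lower.

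The 2 sides of the tile differed as well. The lower-coordinate side was set against the higher-coordinate side in 187 high regions, and limma called 79 (42.2%, background 34.9%), again as a description. It was the higher one in 44 (23.5%, background 18.0%) and the lower one in 35 (18.7%, background 16.9%). Leaving out array 2 or array 4 lowered the count of 44 to 29 or 27. The same count over all regions also fell whenever an array was left out, as the closing section gives. The direction runs along the chromosome, since the strand of the gene is not known. The largest differences, lower-coordinate minus higher-coordinate side, were 1.13 ± 0.17 at chr17:46478770-46481470, 1.08 ± 0.21 at chr1:91736831-91739531 and -1.07 ± 0.28 at chr12:50979715-50982415. They were followed by 0.98 ± 0.18 at chr17:53849393-53852093 and 0.92 ± 0.36 at chr19:56582509-56585209. In the regions on chr1, chr12 and chr17:53849393-53852093, 1 side was below 0, at -0.09, -0.15 and -0.11 log2.

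Not every high region was high over its whole length. Of 158 high regions with at least 3 single-match probes in each of the 3 parts, 145 (91.8%) had every part above 0, and 65 (41.1%) had every part at 0.3 or more. In 13 a part was at 0 or below, and in 12 of these it was an outer one. The parts average the values that chose the regions, and no share over all regions is given, so these counts are a description. Of the probe values in a high region, a median of 77.5% were above 0, against 48.2% in the other regions. A median of 54.2% of a high region's probes were above 0 in all 4 arrays, against 19.05% in the other regions. Without the 3 highest probes of each region, 191 of the 192 were still above 0 in every array and 48 were still at 0.3. Taking away the highest probes lowers any region, and the values are those that chose the regions. Neither count therefore has a fixed point to be read against. Without these probes, the lowest array had a median of 0.23 log2 in the high regions and -0.32 in the other regions. With all probes these medians were 0.35 and -0.185, and the rule itself asks 0.3 of the lowest array. This gap and the shares of probe values above 0 rest on the values that chose the regions and are a description.

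Probes that match several places were not used by the rule. Of the 192 regions, 27 held such probes (14.1%, against 17.9% of the other regions), and 12 held 3 or more. In these 12 they averaged 0.47 ± 0.14 log2, against 0.15 ± 0.19 in 20 low regions and 0.32 ± 0.10 in 916 of the other regions (n = 4 arrays). They were above 0 in 10 of the 12 high regions, in 13 of the 20 low ones and in 739 of the 916 others, so being above 0 does not set the high regions apart. Besides chr6:31025337-31028037, they followed the single-match probes closely at chr2:242615279-242617979, with 0.71 over 14 such probes and 0.77 over 12 single-match ones. They went the other way at chr9:135272485-135277440 (-0.61 over 3 probes and 0.51 over 28) and at chr11:104420761-104423461 (-0.33 over 7 and 0.62 over 14). The regions in this paragraph were named after their values were seen.

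High regions were tiled with slightly longer probes. Their mean probe length had a median of 52.7 nt, against 51.8 nt in the other regions and 52.3 nt in the low regions. When all regions were divided into 5 equal groups by probe length, from short to long, the high regions made up 0.43, 0.68, 1.18, 1.64 and 2.01%, and the low regions 0.74, 1.36, 2.10, 1.86 and 2.44%. The spread between regions also grew with probe length, with an SD of the region means of 0.17 log2 in the group of shortest probes and 0.26 in that of the longest. Long probes were read differently by the arrays: in the group of longest probes the regions averaged -0.14, -0.05, 0.22 and -0.01 log2 in arrays 1 to 4. When the mean of each probe length was subtracted within each array, 176 of the 192 regions still met the rule, among 265 that did. A mean probe length of 54 nt or more was found in 53 high regions (27.6%), 5 of the 10 strongest among them, and in 15.1% of the other regions. The part of base composition in these values was not tested.

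In their size and spacing the high regions were ordinary. Of the 192, 177 (92.2%) were 2700 bp long, against 88.3% of all regions, and the other 15 ran from 2793 to 4955 bp. They held a median of 20 single-match probes, against 21 in the other regions. The nearest measured region lay a median of 32397 bp away, against 34316 bp for the others.

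Across chromosomes the high regions were unevenly placed. Chromosome 5 held 20 of them among 764 measured regions (2.62%), chromosome 12 held 22 of 902 (2.44%) and chromosome 11 held 22 of 1109 (1.98%). Chromosome 6 held 16 (1.75%) and chromosome 19 held 16 (1.50%). These 5 chromosomes, grouped after their values were seen, carried 96 of the 192 high regions (50.0%) and 29.5% of all regions. Chromosome 13 had 0 among 296 regions, chromosome 14 had 1 of 523, and chromosomes 4 and 16 had 2 each, of 682 and 671. The low regions were placed otherwise, with 21 on chromosome 4 (3.08%), 8 on chromosome 21 (3.52%) and 1 on chromosome 20 (0.20%). The rule left out the sex chromosomes, where 10 of 661 regions met the limit, all on chromosome X. The mean ratio of all measured regions was highest on chromosome 12 (0.07 log2) and lowest on chromosome 4 (-0.09). No test is given, because the ratios that placed the regions are the ones that chose them.

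**Figure D4:**
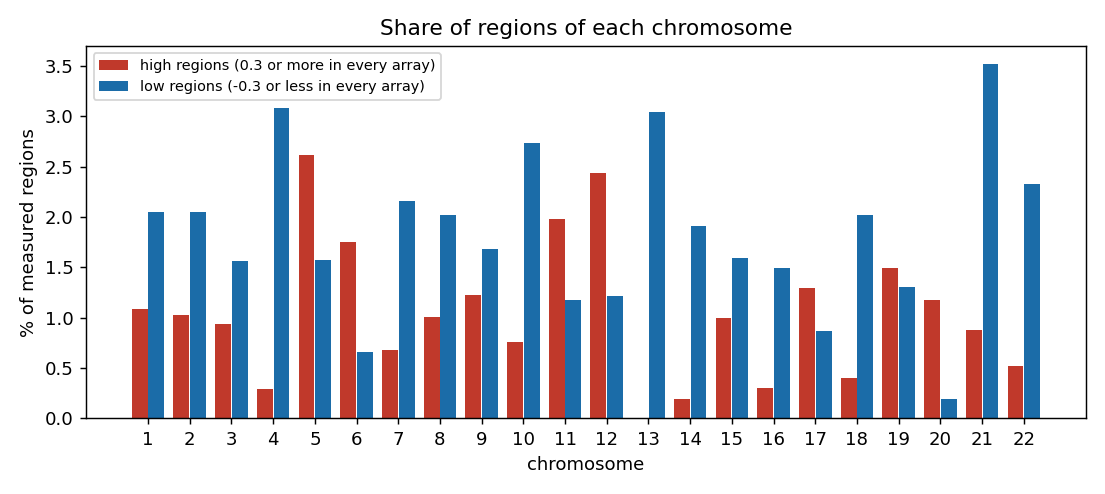
Share of the measured regions of each chromosome that were high regions (red) or low regions (blue). The red bars are tallest on chromosomes 5 and 12 (2.62 and 2.44%) and absent on chromosome 13, and the blue bars are tallest on chromosomes 21 and 4 (3.52 and 3.08%).

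High regions tended to lie among regions that were themselves above the average. The 10 nearest regions had a median above 0 around 133 of the 192 (69.3%), against 39.6% of all regions. With other high regions left out, neighbours within 10 kb of a high region averaged 0.15 ± 0.05 log2 (29 high regions), and those at 10 to 50 kb averaged 0.07 ± 0.03. At 50 to 200 kb the mean was 0.05 ± 0.02, at 200 kb to 1 Mb it was 0.04 ± 0.01, and at 1 to 5 Mb it was 0.04 ± 0.02. Around all regions the means of the same classes lay between -0.01 and 0.00. Another high region lay within 100 kb of 22 of the 192 (11.5%) and within 1 Mb of 74 (38.5%). A high region lay as near to 3.07 and 20.3% of the other regions.

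**Figure D5:**
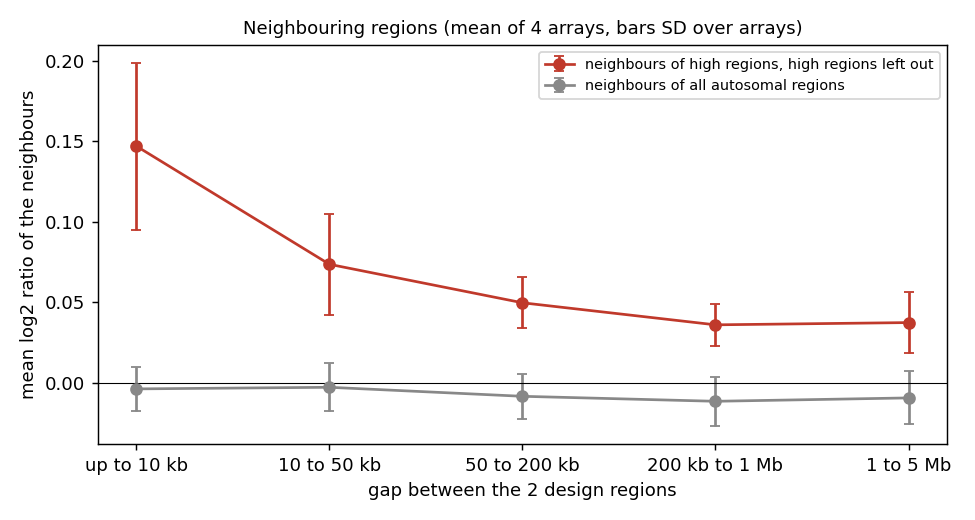
Mean log2 ratio of the regions neighbouring a high region, other high regions left out (red), and of those neighbouring any autosomal region (grey), by the gap between the tiles, with SD over the 4 arrays. The red points lie at 0.15 for gaps up to 10 kb and at 0.04 for gaps of 1 to 5 Mb, and the grey points lie between -0.01 and 0.00.

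Stretches with several high regions were picked after the values were seen. One, on chromosome 5 from 35 to 45 Mb, held 9 high regions among 51, with means between 0.37 and 0.68 log2. The 42 other regions there averaged 0.19 ± 0.07 (n = 4 arrays), with 0.15, 0.16, 0.29 and 0.16 in arrays 1 to 4, and 37 of them were above 0. After the median of the 10 nearest regions was subtracted, 0 of the 9 still stood at 0.3 or more in every array. Their median was then 0.35. Within this stretch, chr5:36277501-36280201, chr5:36337261-36339961 and chr5:36640245-36642945 followed each other with no other measured region between them, the longest such row on the autosomes. They averaged 0.37 ± 0.08, 0.63 ± 0.28 and 0.68 ± 0.09 log2. The third was even over the arrays, at 0.55, 0.71, 0.78 and 0.67. The 10 regions nearest to each had medians of 0.18, 0.28 and 0.28 log2. After that subtraction the 3 stood at 0.19, 0.35 and 0.39.

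Pairs of high regions with no other measured region between them were found 5 more times, and are named after their values were seen. On chromosome 12, chr12:9159325-9162025 gave 0.49, 0.77, 1.06 and 0.64 log2 and chr12:9251733-9254433 gave 0.37, 0.64, 1.58 and 0.54, so both were highest in array 3 and lowest in array 1. On chromosome 1, chr1:143705879-143708579 (0.53 ± 0.15) and chr1:143786880-143789580 (0.68 ± 0.13) lay on the lower-coordinate side of chr1:144234146-144236846, 1 of the 10 strongest, across a gap of 444566 bp. On chromosome 19, chr19:51235614-51238314 and chr19:51319271-51321971 averaged 0.51 ± 0.12 and 0.53 ± 0.18. The remaining pairs lay in the chromosome 5 stretch. One, chr5:40870644-40873344 and chr5:40874842-40877542, gave 0.52 ± 0.16 and 0.62 ± 0.34. The other, chr5:43515347-43518047 and chr5:43550444-43553144, gave 0.68 ± 0.40 and 0.51 ± 0.09.

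Other stretches differed in how far their high regions stood out. On chromosome 12 from 5 to 10 Mb there were 5 among 76 regions, and the 71 others averaged 0.16 ± 0.04 log2. On chromosome 19 from 45 to 55 Mb there were 11 among 241, with the others at 0.07 ± 0.06, and on chromosome 17 from 40 to 45 Mb there were 5 among 73, with the others at 0.06 ± 0.05. After subtraction of the nearest regions, 2 of 5, 4 of 11 and 1 of 5 of these still met the limit in every array. On chromosome 1 from 140 to 145 Mb there were 3 among 17, the same share as in the chromosome 5 stretch. The 14 others there averaged 0.04 ± 0.05, with 7 above 0, and 2 of the 3 still met the limit, with a median of 0.55 over the 3.

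Over all high regions, the same subtraction lowered the median to 0.47 log2, against 0.51 before it. After it, 97 of the 192 (50.5%) were still at 0.3 or more in every array, and 190 were above 0 in every array. Among all 16166 regions, 219 met the limit after it. The nearest regions of the high regions had a median of only 0.05 log2, so the choice itself leaves most of the 192 above 0. These counts, and the ranks that follow, rest on the values that chose the regions and are a description. The 10 strongest regions then stood between 0.62 and 1.15 log2, and all 10 still met the limit in every array. The highest was chr16:55993979-55996679 (1.15), followed by chr11:48282150-48284850 (1.07).

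In the test of each region against 0 (limma, 16831 regions, adjusted p threshold 0.05), all 192 high regions were called, as the choice makes nearly certain. The background was 11.4% of all regions called higher in induced cells. Without array 2 or array 4 that background count of 1921 regions was 830 or 838. Nothing is read from the count of high regions.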

How the data were processed

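The authors deposited, for each of 4 arrays, the log2 ratio of the 635 nm (Cy5, Tet-) to the 532 nm (Cy3, Tet+) signal of 386230 probes, written by NimbleScan per the file headers. Each header gives a biweight mean, and since the deposited medians lie between -0.01 and 0.00 the values are taken to have been centred with it. Base 2 is assumed for the logarithm. Build, NimbleScan version and background correction: not given in the sources used here. Channel intensities were not used here. The count field, not defined in the files, is read as the number of genome matches of a probe (1 for 93.7%).

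Each array was centred on its median. Parts of a region needed 3 single-match probes. Regions were tested with limma 3.58.1 in R 4.3.3 (moderated variances, two-sided, p adjusted by Benjamini-Hochberg over all regions measured, chromosomes X and Y included). The fits were tried on simulated noise with the regions' own spread over the arrays. In it, 200 of 16831 regions were changed by 0.3 or 1.0 log2. The fit between array series recovered no planted change of either size, and the one against 0 recovered only the larger size. In the data 26.2% of regions were called against 0, so the adjustment of p differs and the trial does not give the power there. P-values measure only the spread between these arrays, and their number limits the precision.

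The rule for the high regions was chosen with earlier results of these data known. Regions named are the 10 highest, the 4 with the smallest SD, the 4 with the largest series difference, 3 on each side of the limit, up to 5 from each test of parts and each row of 3 or more neighbouring high regions, besides those said to be named after their values were seen. The alternatives are given in the closing section.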

Additional observations from a re-analysis of the deposited data

Results flagged for a closer look

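For 46 values described above, the 4 arrays were checked with Dixon's test. It marks about 1 in 20 groups by chance, here 2.3, and it marked 2. At chr2:24658649-24661349, array 3 gave 1.595 log2 and the other arrays 0.313 to 0.490. In the central minus outer difference of chr17:46478770-46481470, array 2 gave -1.141 and the others -1.499 to -1.47. Over all 192 high regions, 17 were marked against 9.6 by chance, and in 10 of them array 3 was the high one. The rule cuts off low values in these regions, so the chance rate need not hold for them. No count over all regions is given, and nothing is read from these 2 counts.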

How the results depend on the processing

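The count of 192 high regions rose to 303 with medians over probes (149 of the 192 among them), to 360 with all probes (186) and to 548 at a limit of 0.2. It fell to 47 and 18 at limits of 0.4 and 0.5, and to 48 with the 3 highest probes of each region left out, a setting chosen after seeing the data. Asking fewer arrays gave 681 with arrays 1 and 2 alone, 654 with arrays 3 and 4 alone and 291 to 427 with 1 array left out. Other settings gave 168 to 265, and subtraction of neighbouring regions gave 219, of which 97 were among the 192. Calls against 0 with 1 array left out were 830 to 2126 higher and 843 to 2699 lower, lowest without array 2 or 4. Calls between array series, 0 in either direction, became 7 higher with trend and robust moderation, 2 with quantile normalization or probe length subtracted, and 1 with values as deposited, MAD scaling or medians. With 1 array left out they were 0 to 466 higher and 0 to 16 lower. For the high regions they were 1 with quantile normalization or probe length subtracted, and 0 to 15 with 1 array left out. Central minus outer calls with 1 array left out were 1948 to 2609 higher and 1590 to 2230 lower over all 15883 regions. Over the 180 high regions measured they were 37 to 48 and 13 to 21. Calls between the sides were 1836 to 2499 and 1774 to 2407 over all 16178 regions. Over the 187 high regions measured they were 27 to 33 and 26 to 34. The left-out array value of 0.396 stayed between 0.337 and 0.465, with an exact sign-flip p of 0.12 over 4 arrays or 0.5 over 2 series. The differences behind either p share arrays, so nothing is read from them. The sign of the 33 named regions, some of them below the limit, is fixed by their choice under most settings and shows no stability. With medians over probes 5 of them moved by more than their SD over arrays, with neighbours subtracted 9 did, and with probe length subtracted 1 did. Except where fewer arrays, other probes or another limit entered, the cause was not tested. No paired analysis was possible because there is only 1 group, and each array already holds both states. Signal over background was not used here, so what it limits is unknown.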
